A study of Arabidopsis thaliana with 12 samples.

Results

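The transcripts described here are those of 8 transcription factor genes that organize the stem cell niche of the *Arabidopsis thaliana* root. They were taken by gene identifier and not by a rule on their values, though with earlier results of these data known. All 8 were among the 20017 genes of the expression table: PLT1 (AT3G20840), PLT2 (AT1G51190), PLT3 (AT5G10510, listed as AIL6), BBM (AT5G17430), WOX5 (AT3G11260), SHR (AT4G37650), SCR (AT3G54220) and JKD (AT5G03150). RNA was sequenced from the roots of seedlings kept for 7 days on medium brought to 1 mM phosphate (+Pi) or given none (-Pi). Wild-type Col-0 plants and *crr* plants, from a single T-DNA insertion line in the Col-0 background, were grown on each medium, which gave 4 groups of 3 libraries, each made from the pooled roots of several seedlings. According to the study's methods, the -Pi medium kept a residual amount of phosphate and both media held the same amount of iron. The insertion is in the gene of a CYBDOM protein, a membrane protein that joins a cytochrome b561 domain to a DOMON domain. The mean level of its own transcript, CRR (AT3G25290), was 5.99 log2 CPM in Col-0 on +Pi and 5.64 on -Pi, but -0.38 and -0.11 in *crr*.

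The root grows from a small group of cells at its tip. A quiescent center that rarely divides is surrounded by initials, the stem cells from which each tissue file arises. PLT1, PLT2, PLT3 and BBM are related transcription factors with AP2 DNA-binding domains whose abundance is graded along the meristem and is highest in the niche. WOX5 is a homeodomain factor made in the quiescent center that keeps the neighbouring columella stem cells undifferentiated. SHR and SCR are GRAS proteins: SHR is transcribed in the stele and moves outward into the adjacent layer, where it activates SCR, and both are needed for the quiescent center and the endodermis. JKD, a zinc finger protein of the same layer, binds SHR and SCR and limits how far SHR moves. Low phosphate is known to stop the growth of the primary root and to exhaust the meristem in an iron-dependent way, which is why the levels of these genes were of interest.

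Each value is the authors' mean for a group, in log2 CPM, where CPM is the read count of a gene scaled to a common library size, and a difference is one group mean minus another on this log2 scale. Where CPM are printed, they are 2 raised to that mean. Values of the single libraries were not used, so the spread between replicates is not known and none of the differences below was tested against it. In place of a test, each difference is set beside the same difference over all 20017 genes, and a gene is counted as past the limit where the difference of means was at least 2-fold in either direction. That spread among genes is not a replicate error. In bulk root tissue, a different share of niche cells and a different level of RNA in each cannot be told apart. This holds for higher and for lower means.

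The first feature that the PLT genes share is in their gene structure. Exons were counted in 1 transcript of the reference annotation for each gene, although PLT3 had 7 annotated transcripts and BBM 2. In these, PLT1, PLT2, PLT3 and BBM each had 9 exons, whereas WOX5 and SCR had 2, JKD 4 and SHR 1. In each of the 4 PLT genes the shortest exon held only 9 bases and lay within the coding sequence. These short exons were, in the TAIR10.1 assembly, PLT1 at chr3:7301705-7301713, plus strand, PLT2 at chr1:18978680-18978688, plus strand, PLT3 at chr5:3318813-3318821, plus strand and BBM at chr5:5744157-5744165, minus strand. They are shown in capitals below, with 15 coding bases of the spliced transcript on each side in lower case, because they let the family be seen at the level of bases.
PLT1: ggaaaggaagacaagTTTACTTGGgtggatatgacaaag
PLT2: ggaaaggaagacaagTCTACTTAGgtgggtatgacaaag
PLT3: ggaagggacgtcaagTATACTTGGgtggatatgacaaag
BBM: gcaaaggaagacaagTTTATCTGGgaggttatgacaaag
Of these 39 bases 29 were identical in the 4 genes, and 5 of the 9 exon bases. The 9-base exon was also present in the relatives PLT5, PLT7 and ANT, and 26 of the 39 bases were identical in all 7 genes. Such likeness could let reads of one gene be counted for another. No 50-base window of any member's spliced transcript occurred elsewhere in the genome. That search could not find a match across an exon junction, such as one around the 9-base exon, because introns interrupt the genome sequence there. Each member's transcript was also compared with those of the other members, PLT5, PLT7 and ANT. The longest identical run was 38 bases, between PLT1 and PLT2. Whether spliced stretches of other genes match, or reads were miscounted, was not tested.

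**Figure D1:**
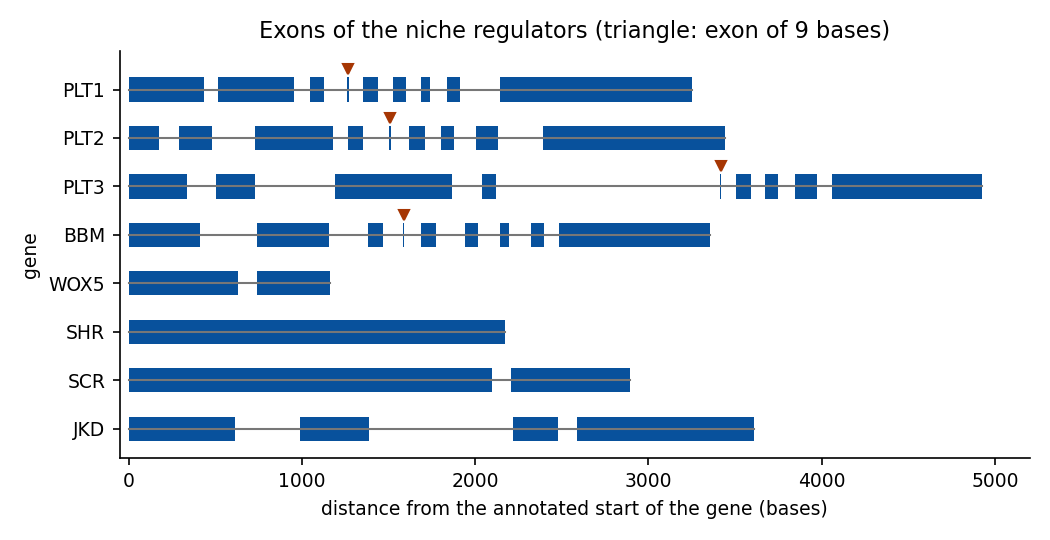
Exons (boxes) of the 8 niche regulators for 1 annotated transcript each, drawn to scale against the distance in bases from the annotated start of the gene, with introns as lines. The triangles mark the exon of 9 bases, which appears in PLT1, PLT2, PLT3 and BBM and in none of the other 4 genes.

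The 250 bases before the annotated start of the 4 PLT genes are shown next, since these genes had higher means on -Pi in both genotypes. In TAIR10.1 they were PLT1 at chr3:7300194-7300443, plus strand, PLT2 at chr1:18976926-18977175, plus strand, PLT3 at chr5:3315151-3315400, plus strand and BBM at chr5:5745749-5745998, minus strand. Capitals mark 4 short motifs searched on both strands: the auxin response elements TGTCTC and TGTCGG, the P1BS element GNATATNC, which phosphate starvation response factors bind, and the TATA box TATAAA.
PLT1: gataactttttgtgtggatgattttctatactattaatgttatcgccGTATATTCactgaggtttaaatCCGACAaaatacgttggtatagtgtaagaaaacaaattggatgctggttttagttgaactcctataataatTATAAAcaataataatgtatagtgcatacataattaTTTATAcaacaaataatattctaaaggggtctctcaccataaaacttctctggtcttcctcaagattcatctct
PLT2: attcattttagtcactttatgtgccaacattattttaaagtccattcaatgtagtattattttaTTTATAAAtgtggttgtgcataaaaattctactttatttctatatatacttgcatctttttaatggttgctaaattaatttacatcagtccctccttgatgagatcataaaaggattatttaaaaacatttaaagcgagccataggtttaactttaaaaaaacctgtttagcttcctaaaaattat
PLT3: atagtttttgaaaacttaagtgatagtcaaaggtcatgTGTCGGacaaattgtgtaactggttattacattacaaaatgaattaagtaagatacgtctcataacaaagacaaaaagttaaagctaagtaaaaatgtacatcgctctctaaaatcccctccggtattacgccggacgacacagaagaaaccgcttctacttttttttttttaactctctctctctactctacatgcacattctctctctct
BBM: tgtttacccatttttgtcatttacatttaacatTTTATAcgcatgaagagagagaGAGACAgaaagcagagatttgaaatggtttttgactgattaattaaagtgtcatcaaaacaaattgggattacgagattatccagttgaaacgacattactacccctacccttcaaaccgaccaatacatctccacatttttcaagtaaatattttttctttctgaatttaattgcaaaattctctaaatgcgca
A P1BS match was found in PLT1 alone of the 8 members, starting 203 bases before the gene, and in 5.46% of 27443 promoters of protein-coding genes of the same length. TGTCGG occurred in PLT1 and PLT3, against 4.16% of all promoters, and TGTCTC in BBM, against 10.9%. TATAAA was found in PLT1, PLT2, BBM and JKD and in 47.3% of all promoters. In PLT2 its forward and reverse matches overlapped. No motif was found in these windows of WOX5, SHR and SCR. These matches describe the letters of the windows only.

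Levels are compared between genes as CPM per kilobase of annotated exon. In Col-0 on +Pi the order from high to low was JKD at 22.8 CPM per kilobase, SCR at 21.3, SHR at 17.2, PLT3 at 16.6, PLT1 at 5.95, PLT2 at 3.90, BBM at 3.25 and WOX5 at 1.48. The genes therefore fell into a leading set of 4, between 16.6 and 22.8, and a lower set of 4, at 5.95 or less. On -Pi, PLT3 led in both genotypes, at 24.9 CPM per kilobase in Col-0 and 30.1 in *crr*, followed by SHR, JKD and SCR in Col-0 and by JKD, SCR and SHR in *crr*. The lower 4 kept the order PLT1, PLT2, BBM and WOX5 in all 4 groups. Which neighbours in this order differ beyond the replicate spread cannot be said. PLT3 has 7 annotated transcripts, and with the length of 1 of them instead of all exons it stood at 20.6 CPM per kilobase in Col-0 on +Pi and at 21.3 in *crr* on +Pi, which was rank 3 and rank 2.

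The level of WOX5 was the lowest of the members and in the lower part of the whole table. It was 1.56 CPM in Col-0 on +Pi, 2.28 in Col-0 on -Pi, 1.93 in *crr* on +Pi and 1.97 in *crr* on -Pi. Per kilobase, between 84.1% and 88.1% of genes were at or above it in the 4 groups. The table had been limited by the authors to genes that reached 1 CPM in some sample, and the means of all 8 members were above 1 CPM in every group.

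**Figure D2:**
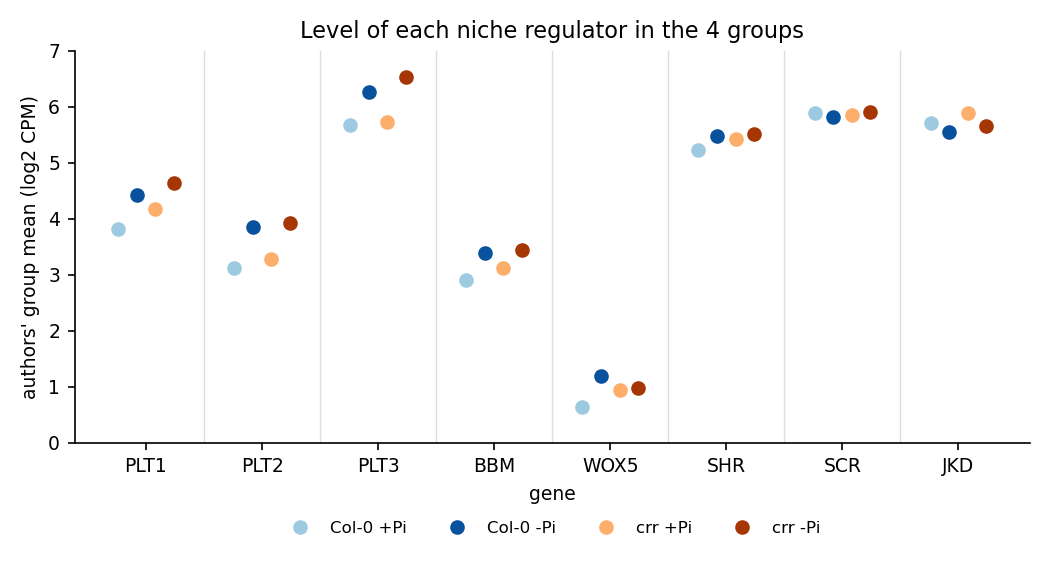
Group means in log2 CPM (vertical axis) of the 8 niche regulators in Col-0 +Pi, Col-0 -Pi, *crr* +Pi and *crr* -Pi, with 1 point a group and no error bars because only means were used. In PLT1, PLT2, PLT3 and BBM both -Pi points lie above both +Pi points, while the 4 points of SCR lie within 0.09 log2 units.

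The first comparison asks how the niche regulators differed between -Pi and +Pi in the wild type. The 4 PLT genes and WOX5 were higher on -Pi, by 1.41- to 1.65-fold, SHR was higher by 1.20-fold, and SCR and JKD were slightly lower. None of the 8 reached 2-fold, as did 6.97% of all genes, and 2 of them, PLT1 and PLT2, reached 1.5-fold, as did 15.6% of all genes. The median difference of the 8 was 0.52, against 0.02 for all genes. Of the 8 members 6 were higher on -Pi, while 54.3% of all genes were.

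PLT2 had the largest of these differences. Its mean was 3.13 log2 CPM in Col-0 on +Pi and 3.85 on -Pi, a difference of 0.72, and 6.46% of all genes had one at least as high. PLT1, which acts together with PLT2 in specifying the niche, had means of 3.82 and 4.43, a difference of 0.61. These genes mark the distal meristem, and their summed level with PLT3 and BBM was 81.6 CPM on +Pi and 123 CPM on -Pi. PLT3, which also acts in the formation of lateral roots, had means of 5.68 and 6.26, and its difference of 0.58 lay just under the 1.5-fold limit of 0.585. BBM, known best for inducing embryos when it is overexpressed, had means of 2.90 and 3.39, a difference of 0.49. The differences of the 4 genes thus ran only from 0.49 to 0.72, although their levels ranged from 7.47 CPM for BBM to 51.2 CPM for PLT3 on +Pi.

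WOX5, the quiescent center factor, had means of 0.64 log2 CPM on +Pi and 1.19 on -Pi in Col-0. This difference of 0.55 was close to those of the PLT genes on the log2 scale but belongs to a gene of low level, and it was 0.36 on the log2(CPM + 1) scale. SHR stood at 5.22 on +Pi and 5.49 on -Pi, a difference of 0.26. SCR, its direct target, was at 5.89 and 5.82, a difference of -0.06, and JKD at 5.70 and 5.55, a difference of -0.15. The genes of the ground tissue layer were thus those with the smallest differences.

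The same comparison in *crr* again gave higher means on -Pi for the 4 PLT genes, while those of WOX5 were nearly level. None of the 8 members reached 2-fold, against 8.67% of all genes, and PLT2 and PLT3 reached 1.5-fold, against 18.1% of all genes. Of these, 7 of the 8 were higher on -Pi, as were 51.4% of all genes, and the median difference was 0.21, against 0.01 for all genes. PLT3 led with means of 5.73 log2 CPM on +Pi and 6.54 on -Pi, a difference of 0.81 or 1.75-fold. That of PLT2 was 0.64, from 3.29 to 3.93, and that of PLT1 was 0.47, from 4.17 to 4.65. BBM had means of 3.12 and 3.45, with a difference of 0.33. Among these 4 PLT genes, PLT3 alone had a wider difference in *crr* than in Col-0.

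WOX5 had nearly the same mean on both media in *crr*, 0.95 log2 CPM on +Pi and 0.98 on -Pi, so that its difference was 0.02. SHR was also close, at 5.43 and 5.52, with a difference of 0.09. SCR was at 5.85 and 5.91, a difference of 0.06, and JKD at 5.89 and 5.65, a difference of -0.24. JKD was the only member that was lower on -Pi in both genotypes. The *crr* and Col-0 comparisons use separate libraries.

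**Figure D3:**
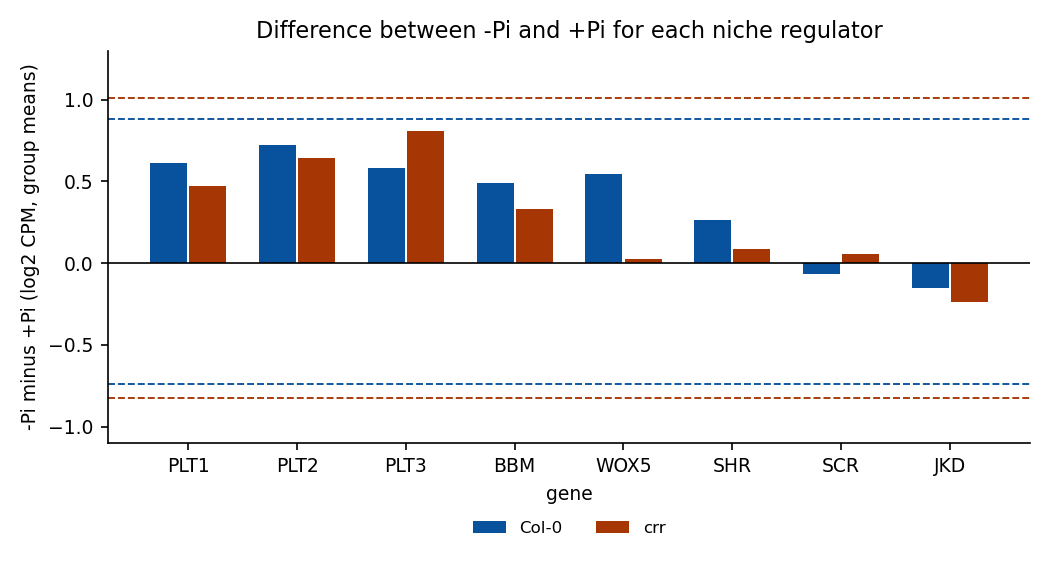
Difference between the -Pi and +Pi group means (log2 CPM, vertical axis) of each niche regulator in Col-0 (blue bars) and *crr* (brown bars). Dashed lines in the same colours mark the 5th and 95th percentile over all 20017 genes, -0.74 and 0.88 in Col-0 and -0.82 and 1.01 in *crr*, and every bar lies between them.

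Other genes of the same network give the setting for these values, counted over whole lists and not over the genes that differed most. Of 3 measured relatives of the PLT genes, none reached 2-fold in either genotype, against 6.97% of all genes in Col-0 and 8.67% in *crr*. PLT7, which acts with PLT3 in lateral roots, had means of 1.51 log2 CPM in Col-0 on +Pi and 2.09 on -Pi, and 1.49 and 1.97 in *crr*, differences of 0.58 and 0.48. PLT5, the third gene of that set, went the other way, with differences of -0.37 in Col-0 and -0.56 in *crr*. ANT, a growth regulator best known from shoot organs, was at -0.12 and -0.43. Of the 3 relatives, PLT7 thus had higher means on -Pi, while PLT5 and ANT had lower ones. The highest group means of PLT7 and PLT5 were only 4.254 and 3.935 CPM, so their differences belong to genes of low level.

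Among 8 genes that act with or downstream of SHR, SCR and JKD, none reached 2-fold with Pi supply. Of all genes 6.97% did in Col-0 and 8.67% in *crr*. The median difference of the 8 was -0.11 in Col-0 and -0.05 in *crr*. The largest belonged to MYB36, the factor that switches endodermal cells from division to differentiation. Its level was 20.7 CPM in Col-0 on +Pi, 29.2 in Col-0 on -Pi, 18.4 in *crr* on +Pi and 36.5 in *crr* on -Pi, a log2 difference of 0.50 in Col-0 and 0.99 in *crr*. CYCD6;1, the D-type cyclin that SHR and SCR induce for the division of the ground tissue initial, differed by 0.16 in Col-0 and -0.06 in *crr*. Its widest difference was between the genotypes on -Pi, with 8.52 CPM in Col-0 and 6.20 CPM in *crr*, a log2 difference of -0.46. The widest after MYB36 for Pi alone was that of NUC, a zinc finger relative of JKD, at -0.44 in Col-0 and -0.23 in *crr*.

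Of 12 measured genes of quiescent center and columella signalling 1 reached 2-fold in Col-0, against 6.97% of all genes, and 2 did in *crr*, against 8.67%. The gene counted in Col-0, and 1 of those in *crr*, was ERF115, whose means were under 1 CPM in all 4 groups and lowest on +Pi, so that this count carries little. ERF115, a factor of quiescent center division and of stem cell replacement after damage, was near the lower end of the table on +Pi, at 0.0520 CPM in Col-0 and at the floor of the table in *crr*. On -Pi it was listed at 0.784 CPM in Col-0 and 0.476 CPM in *crr*, still under 1 CPM, and no fold is given. XAL2 (listed as AGL14), a MADS box regulator of the root meristem and of auxin transport, was at 2.21 and 2.96 log2 CPM for +Pi and -Pi in Col-0 and at 1.87 and 3.10 in *crr*, differences of 0.75 and 1.23. The next genes were chosen after their values were seen. BRAVO (listed as MYB56), which holds back division of the quiescent center, differed by 0.65 in Col-0 and 0.73 in *crr*, and MP (listed as ARF5), the auxin response factor upstream of the PLT genes, by 0.84 and 0.55. These differences were of the size of those of the PLT genes, but the median of the list was 0.12 in Col-0 and 0.28 in *crr*. Of its 12 measured genes 4 had lower means on -Pi in Col-0 and 3 in *crr*, while 9156 and 9725 of all 20017 genes did.

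The RGF peptides are secreted signals that extend the PLT gradient through their receptors, and the transcription factor RITF1 acts below the receptors. None of the 9 measured genes of this pathway reached 2-fold in any comparison, where 0.954% to 8.67% of all genes did. RGF2, a peptide gene, had means of 1.27 log2 CPM in Col-0 on +Pi and 1.91 on -Pi, but 1.53 and 1.46 in *crr*, so that its difference was 0.65 in Col-0 and -0.08 in *crr*. The receptor gene AT5G48940 (listed as RCH1) differed by 0.34 in Col-0 and 0.16 in *crr*. The median of the list was 0.20 in Col-0 and 0.09 in *crr*.

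The second question is how *crr* differed from Col-0 on the same medium. On +Pi, 7 of the 8 members had a higher mean in *crr*, against 49.8% of all genes, but by at most 1.28-fold, and the median difference was 0.19 against -0.00 for all genes. None reached 2-fold, as did 0.954% of all genes, or 1.5-fold, as did 3.37%. PLT1 had the widest difference, from 3.82 log2 CPM in Col-0 to 4.17 in *crr*, which was 0.36, and 3.36% of all genes had one at least as high. WOX5 followed at 0.31, with 4.23% of genes at or above it, but its difference was 0.20 on the log2(CPM + 1) scale. Then came BBM at 0.22, SHR at 0.20, JKD at 0.18, PLT2 at 0.16 and PLT3 at 0.05. SCR, at 5.89 in Col-0 and 5.85 in *crr*, differed by -0.03. The range over all genes was narrow here, with a 95th percentile of 0.28.

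On -Pi, 7 of the 8 members were again higher in *crr*, while 48.4% of all genes were, and the median difference was 0.08 against -0.01 for all genes. Neither limit was reached by any member, against 1.69% of all genes at 2-fold and 5.71% at 1.5-fold. PLT3 was at 6.26 log2 CPM in Col-0 and 6.54 in *crr*, a difference of 0.28, and PLT1 at 4.43 and 4.65, a difference of 0.22. WOX5 was the exception, at 1.19 in Col-0 and 0.98 in *crr*, a difference of -0.21. The remaining members lay between 0.03 for SHR and 0.10 for JKD. Since this comparison and the Pi comparisons share group means, they are not separate evidence.

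The difference of the Pi responses, *crr* minus Col-0, shows where the genotypes departed from each other. None of the 8 members reached 2-fold, against 2.99% of all genes, or 1.5-fold, against 8.53%. The widest value was that of WOX5, at -0.52, and 5.15% of all genes had one at least as low. It was -0.34 on the log2(CPM + 1) scale. For the other 7 it ranged from -0.18 for SHR to 0.22 for PLT3, and the median of the 8 was -0.11 against -0.01 for all genes. WOX5 is also the member with the lowest level, under 3 CPM in every group.

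Markers of cells around the niche were measured in the same libraries. The 9 genes of dividing cells, mitotic cyclins and B-type cyclin-dependent kinases with the cytokinesis gene KNOLLE, had a summed level of 279 CPM in Col-0 on +Pi, 288 in Col-0 on -Pi, 287 in *crr* on +Pi and 245 in *crr* on -Pi. All 9 were lower in *crr* than in Col-0 on -Pi, with a median of -0.22 and a range from -0.41 for CYCA1;1 to -0.14 for CYCB1;2, while 3 of 9 were lower on +Pi. In *crr* 8 of the 9 were lower on -Pi than on +Pi, with a median of -0.28. In Col-0 3 of 9 were, with a median of 0.06. Among all 20017 genes, 10321 were lower in *crr* on -Pi and 10043 on +Pi. Between the media, 9725 were lower on -Pi in *crr* and 9156 in Col-0. None of the 9 genes of dividing cells reached 2-fold in any comparison, where 0.954% to 8.67% of all genes did. Between the genotypes on -Pi, the genes of division thus had lower means in *crr*, as did WOX5 at -0.21. The 4 PLT genes had higher ones, PLT3 by 0.28, PLT1 by 0.22, PLT2 by 0.08 and BBM by 0.05. The last 2 barely differed, with 29.6% and 34.3% of all genes at or above them.

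Genes of the root cap, FEZ, SMB, BRN1 and BRN2, had higher means on -Pi in both genotypes in 4 of 4 cases. The medians were 0.31 in Col-0 and 0.37 in *crr*, while 54.3% and 51.4% of all genes were higher on -Pi. On +Pi and -Pi the 4 genes summed to 27.6 and 35.2 CPM in Col-0 and to 30.8 and 39.1 CPM in *crr*. The 6 endodermal barrier genes, which MYB36 controls, were all higher in *crr* than in Col-0 on -Pi, with a median of 0.50. On +Pi 5 of 6 were lower in *crr*, with a median of -0.12. Of all genes, 48.4% were higher in *crr* on -Pi and 49.8% on +Pi. The 6 endodermal genes summed to 300.0 CPM in Col-0 on +Pi and 268 on -Pi, and to 276 and 371 in *crr*. CASP5, a membrane protein of the Casparian strip, was the only gene of the list past 2-fold in any comparison. On -Pi it had 0.573 CPM in Col-0 and 1.62 CPM in *crr*, where 1.69% of all genes were past 2-fold. In Col-0 on +Pi it had 2.28 CPM, so it was also past 2-fold for Pi, as were 6.97% of all genes. The difference of its Pi responses, 1.26, was past 2-fold as well, as was that of 2.99% of all genes. The CASP5 mean under 1 CPM in Col-0 on -Pi limits all of these differences. The part of any of these cell types in the levels of the niche regulators was not tested.

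**Figure D4:**
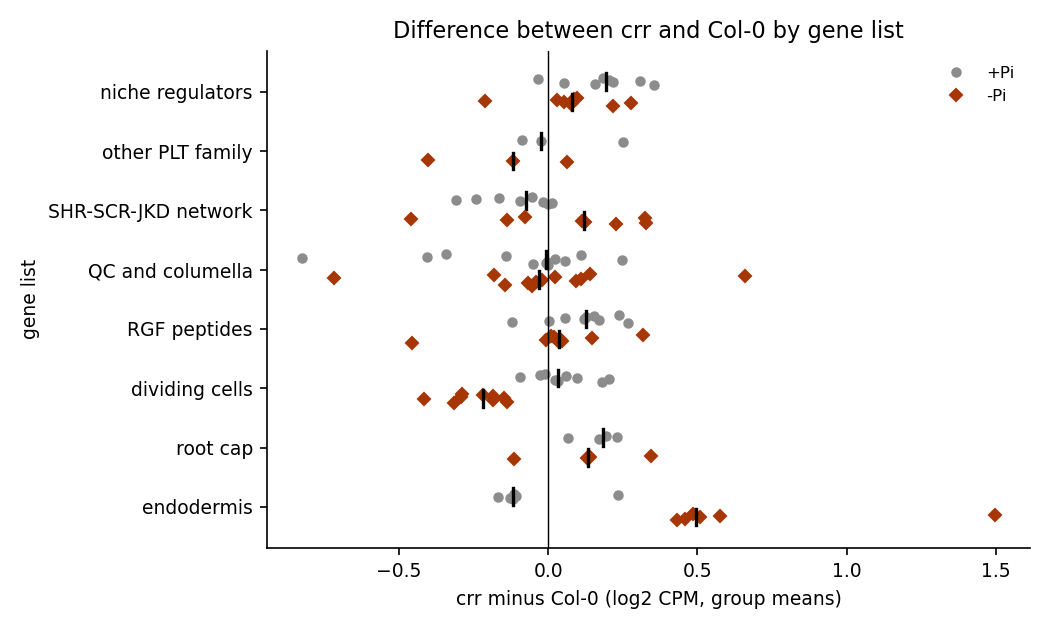
Difference between the *crr* and Col-0 group means (log2 CPM, horizontal axis) for every measured gene of 8 lists, on +Pi (grey circles) and -Pi (brown diamonds), with a black bar at the median of each list. On -Pi the 9 genes of dividing cells lie to the left of 0 and the 6 endodermal genes to the right, while 7 of the 8 niche regulators lie to the right of 0.

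The roots carried the markers of a root. The epidermal and root hair genes COBL9, GL2 and WER were measured in every group, at 50.03 to 86.77, 19.23 to 25.35 and 13.08 to 16.03 CPM, as was the phosphate transporter PHT1;1, at 286 to 599 CPM and higher on -Pi in both genotypes, whereas the shoot meristem genes WUS, CLV3 and STM were not among the genes measured. Transcripts of green tissue were present at a low level and differed with Pi. RBCS1A, PSBO1 and PSBO2 summed to 69.7 CPM in Col-0 on +Pi, 31.6 in Col-0 on -Pi, 73.0 in *crr* on +Pi and 26.3 in *crr* on -Pi, and whether this touches the niche regulators was not tested.

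The genes with the profile most like that of a member were sought for PLT3 and PLT1, which had the widest range over the 4 means, 0.86 and 0.83 log2 units. Likeness was the root mean square distance between profiles, each taken as the 4 group means less their average, over 18383 genes that reached 1 log2 CPM. For PLT3 these were AT3G06070 at a distance of 0.016 log2 units, TIFY11B (AT1G72450), a repressor of jasmonate signalling, at 0.019 and AT1G77660 at 0.024. For PLT1 they were AT3G27950 at 0.019, MYB23 (AT5G40330), a regulator of epidermal cell fate, at 0.021 and AT5G40100 at 0.023. With 4 points a profile, so close a match is a description of these means only.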

How the data were processed

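RNA was sequenced from 12 root libraries, 3 in each of 4 groups. As the authors' methods and the processing notes of the submitters state, reads were trimmed with cutadapt 1.8, cleared of ribosomal and low-complexity reads, aligned to TAIR10 with STAR 2.5.3a and counted per gene with HTSeq 0.9.1. Genes that reached 1 CPM in any sample were kept. The authors deposited 1 value for each gene and group, in log2 CPM after TMM scaling in edgeR 3.24.3. Neither the prior count nor the strand setting is stated (not given in the sources used here). With strand unknown, reads of overlapping antisense genes cannot be told apart. A further 5 deposited tables hold the authors' own fold changes, p-values and F statistics from limma, and were not used. Groups were taken from the sample titles.

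Differences of the deposited group means were computed with pandas 2.3.3 under Python 3.11.15, without any test, and the code was tested on simulated data. Read numbers per library were not used, so no interval is given. The lowest value of the table, -5.09 log2 CPM, is called its floor, and 30 genes were there in at least 1 group. Exon lengths, sequences and motifs came from the RefSeq annotation of TAIR10.1, in which 99.3% of 19997 matched genes, and all 8 members, had the coordinates of the deposited table. The members and the 11 gene lists were chosen with earlier results of these data known. All members are named, and of each list of network genes those past 2-fold or, failing 3 such genes, the 2 with the widest differences.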

Additional observations from a re-analysis of the deposited data

How the results depend on the processing

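No member's difference changed its sign on the log2(CPM + 1) or log2(CPM + 0.5) scale or after centring on the median of all genes. Under any of these, 0 members reached 2-fold. Adding a constant to the CPM keeps the order of group means and shrinks their differences. For the Pi and genotype differences, the outcome on these scales was therefore fixed in advance. Only the centring and the difference of the Pi responses could have come out otherwise. With a limit of 1.5-fold in place of 2-fold, 2 members were past it for Pi in Col-0 and 2 in *crr*. The median of the members for Pi in Col-0 was 0.52 as reported and 0.40 with log2(CPM + 1), where low genes shrink by construction. The counts over all genes depend far more on these choices. As reported they were 1396 for Pi in Col-0, 1736 for Pi in *crr*, 191 and 338 for genotype on +Pi and -Pi, and 598 for the difference of the Pi responses. In the same order they were 3131, 3632, 674, 1142 and 1708 at 1.5-fold, and 742, 936, 3, 37 and 51 with log2(CPM + 1). With log2(CPM + 0.5) the last 3 were 7, 80 and 149, and among genes that reached 1 log2 CPM 39, 114 and 215. The lengths of single transcripts, an alternative added after seeing the data, put PLT3 at rank 2 instead of 4 in *crr* on +Pi. No paired analysis was possible because the values used are group means, and for the same reason no replicate could be left out. The level of WOX5, at most 2.28 CPM, limits how firmly its differences can be read.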

Other observations

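Genes that mark the founding of lateral roots, where PLT3 also acts, went in both directions. Of 6 genes 5 had lower means on -Pi in Col-0 and 4 in *crr*, while 9156 and 9725 of all 20017 genes did. At 2-fold, 1 was higher and 2 were lower in Col-0, and 1 and 1 in *crr*, against 6.97% and 8.67% of all genes. GATA23, a factor of founder cell identity, had means of 0.82 log2 CPM in Col-0 on +Pi and -0.88 on -Pi, and 0.79 and -0.10 in *crr*, differences of -1.69 and -0.89. LBD29, an auxin-induced gene of the first divisions, differed by -1.30 in Col-0 and -1.31 in *crr*. LBD16 and PUCHI, which act beside it, were at -0.22 and -0.28 in Col-0 and at 0.19 and -0.31 in *crr*. LBD33 was the one gene of the list with a higher mean on -Pi in Col-0, from 0.338 to 0.937 CPM, and it went from 0.210 to 1.06 CPM in *crr*. LBD18 differed by -0.57 in Col-0 and -0.86 in *crr*. In Col-0 on -Pi, GATA23 was at 0.544 CPM and LBD29 at 1.22 CPM, so the counts past 2-fold rest on low levels. The list summed to 19.7 CPM in Col-0 on +Pi, 14.5 in Col-0 on -Pi, 18.6 in *crr* on +Pi and 15.4 in *crr* on -Pi.

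UPB1, a bHLH factor that sets where cells leave the meristem by controlling peroxidases, had the widest difference of the Pi responses among the 12 measured genes of quiescent center and columella signalling. Its level was 5.66 CPM in Col-0 on +Pi, 4.71 in Col-0 on -Pi, 5.13 in *crr* on +Pi and 7.45 in *crr* on -Pi, and the difference of the responses was 0.80 on the log2 scale. It was chosen after its value was seen, and no difference was tested.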
